A study of Mus musculus with 23 samples.

Results

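Tubulin is the building block of microtubules, and 10 of its genes were followed here through every RNA-seq and Ribo-seq library of a study of small intestinal organoids and mice. They were chosen by name, 4 genes of α-tubulin (Tuba1a, Tuba1b, Tuba1c and Tuba4a) and 6 of β-tubulin (Tubb2a, Tubb2b, Tubb3, Tubb4b, Tubb5 and Tubb6), out of 22350 genes counted. All 10 passed the filter on low counts in each of the 6 comparisons made. A gene can pass this filter through the group where it is high alone. The list was drawn up with earlier results of the same libraries known, so the tests below describe these libraries and are not independent evidence.

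All samples came from C57BL/6 mice. RNA-seq of organoids covered VillinCre.ERT2.RPL22.HA organoids in normal medium (WT, 2 lines), VillinCre.ERT2.Rptor.fl/fl organoids (Rptor fl/fl, 2 lines) and VillinCre.ERT2.RPL22.HA organoids grown as stem cell enriched cultures (SCe, 3 lines) with 10 μM CHIR 99021 and 1.5 mM valproic acid. The Rptor fl/fl organoids of the RNA-seq carried no RPL22.HA allele by their label, whereas the WT and SCe organoids did. Ribo-seq, which sequences the fragments of mRNA covered by ribosomes, was made from VillinCre.ERT2.Rptor.fl/fl.RPL22.HA organoids (3 libraries) and SCe organoids (3 libraries), and from the small intestine of Lgr5Cre.ERT2.RPL22.HA mice (WT, 3 mice) and of Rptor fl/fl mice, labelled Lgr5Cre.ERT2.Rptor.fl/fl.RPL22.HA (3 mice). Villin drives the inducible Cre in intestinal epithelium and Lgr5 drives it in crypt base stem cells. Rptor encodes Raptor, a part of the growth regulator mTORC1, and RPL22.HA tags ribosomes for pulldown. The labels call these samples untreated apart from the SCe cultures, while the methods of the study describe tamoxifen induction of Cre, and the labels give no age for the mice. The organoid Ribo-seq used here held no WT organoids in normal medium. In every comparison of Rptor fl/fl with SCe organoids, the Rptor genotype and the SCe medium therefore cannot be told apart.

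Microtubules are polymers of α/β-tubulin dimers that form the mitotic spindle, the tracks of intracellular transport and the apico-basal arrays of epithelial cells. Mammals hold several genes, or isotypes, of each subunit, and the proteins differ mostly at their acidic C-terminal tails. Cells also adjust tubulin mRNA to the amount of free dimer: when free tubulin is in excess, TTC5 binds the first residues of the nascent chain on the ribosome and the message is degraded while it is being translated. Tubb2a, Tubb2b and Tubb3 are best known from neurons, Tubb4b and Tubb5 are broadly expressed, Tubb6 is known from muscle and other non-epithelial cells, and Tuba1a is the main α isotype of developing brain.

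How far the values of single isotypes can be trusted depends on how much sequence they share. The first 30 coding bases, all in coding exons, are shown for genes the results turn on, with the start codon and the next 3 codons, the stretch that encodes the part of the nascent chain read in this feedback, in capitals. All sequences are from GENCODE vM21 on mm10, 5′ to 3′ on the gene's strand.
Tubb2a, chr13:34077900-34077929, minus strand: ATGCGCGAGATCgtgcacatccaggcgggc
Tubb2b, chr13:34130204-34130233, minus strand: ATGCGAGAGATCgtgcacattcaggcgggc
Tubb5, chr17:35838024-35838053, minus strand: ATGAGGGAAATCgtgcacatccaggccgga
Tuba1a, chr15:98951665-98951691 and chr15:98953451-98953453, minus strand: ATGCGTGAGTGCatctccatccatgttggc
Tuba1b, chr15:98933169-98933195 and chr15:98934333-98934335, minus strand: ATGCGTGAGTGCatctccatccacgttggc
In the β genes these bases lie in a single exon, whose coding part is 57 bases long. In each α gene the first coding exon holds only the 3 bases of the start codon. Among the 4 α genes 2 distinct versions of the capital stretch occurred, and among the 6 β genes 5. These are versions of the bases: within each class, the capital stretches shown here encode the same residues.

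Over the whole coding sequence Tubb2a and Tubb2b, neighbours on chromosome 13, were identical at 96.5% of aligned bases. The 3 genes Tuba1a, Tuba1b and Tuba1c, neighbours on chromosome 15, were identical at 97.2 to 98.3%.

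Over windows of 28 bases, close to the length of a footprint, the share of windows of the coding sequence found in no other counted gene was 12.7% for Tuba1a, 9.33% for Tuba1b and 7.63% for Tuba1c. It was 37.1% for both Tubb2a and Tubb2b, and 93% or more for Tubb3, Tubb4b, Tubb5, Tubb6 and Tuba4a. For 50-base windows of the whole transcript, which RNA-seq was counted on, it was 34.5 to 40.2% for the Tuba1 trio, 54.4% for Tubb2a and 66.6% for Tubb2b. The footprint counts deposited for these 5 genes, and the mRNA counts of the Tuba1 trio, therefore rest largely on how the authors' software divided shared reads, and sums over the trio and over the pair are given for organoids and mice. In the annotation 5 of the 10 loci overlap another gene, 3 of them on the same strand: Gm20388 spans Tubb3, and Gm49450 reaches over both Tuba1b and Tuba1a.

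**Figure D1:**
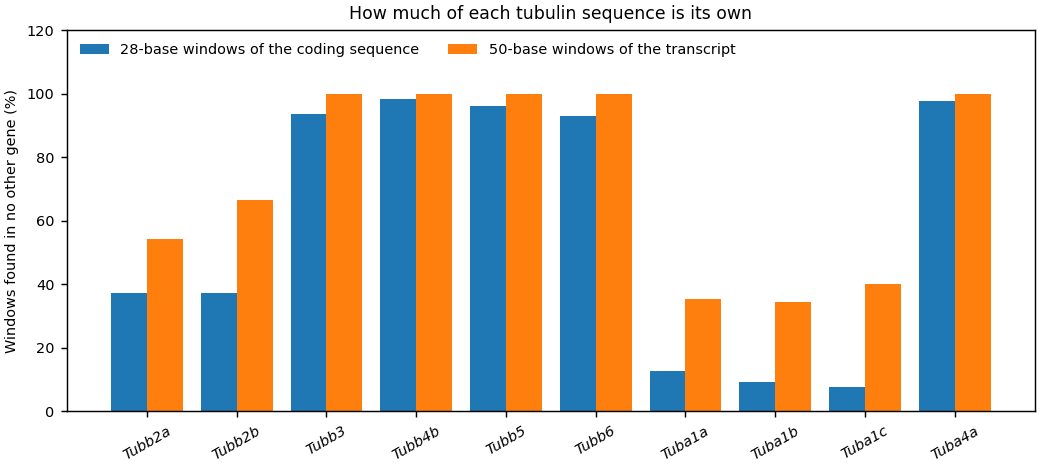
Share of sequence windows (percent, y axis) that occur in no other counted gene, for each tubulin gene (x axis), as 28-base windows of the coding sequence and as 50-base windows of the transcript. Tuba1a, Tuba1b and Tuba1c sit at 7.63 to 12.7% for 28-base windows and Tubb2a and Tubb2b at 37.1%, while the other 5 genes are at 93% or above.

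The RNA-seq held 27439459 to 67598878 reads per line, the Ribo-seq of organoids 1106178 to 8257457 and that of mice 772077 to 8238388. Values below are CPM, counts relative to the library size as scaled by edgeR, and where genes are compared with each other, this value divided by transcript length in kilobases (level per kilobase). Rptor itself had 51.5 and 47.9 CPM in the WT lines, 14.8 and 15.5 in the Rptor fl/fl lines and 53.7 to 60.8 in the SCe lines of the RNA-seq. In the organoid Ribo-seq it had 15.9 to 18.7 CPM in Rptor fl/fl libraries against 15.2 to 41.8 in SCe, which overlapped, with a log2 difference of −0.53 ± 0.34 (SE) and an adjusted p of 0.318. In mice it had 32.5 to 36.7 against 39.5 to 44.5 CPM in WT (log2 difference −0.28 ± 0.12, adjusted p = 0.15). Rptor footprints did not pass the threshold in either Ribo-seq comparison, so its groups are named below only by their labels. SCe line 1 of the RNA-seq was the shallowest line (27439459 reads), and without it the genes called in SCe against WT went from 6309 to 9530, so results that rest on it are also given without it. Lgr5, the stem cell marker, had 197 to 215 CPM in WT, 44.4 and 73.9 in Rptor fl/fl and 219 to 337 in SCe lines. In mice it had 7.72 to 11.3 CPM in WT and 6.29, 8.49 and 45.6 in the mice labelled Rptor fl/fl.

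Of the 10 tubulin genes, 0 were called higher and 2 lower in Rptor fl/fl than in WT organoids by RNA-seq at an adjusted p under 0.05 (edgeR), where 11.6% of the 14131 genes tested were called higher, 11% lower and 22.6% in either direction. In SCe against WT, 2 were called higher and 1 lower, where 22.4% of genes were called higher, 19.9% lower and 42.3% in either direction. In Rptor fl/fl against SCe by RNA-seq, 0 were called higher and 5 lower, where 21% of genes were called higher, 21.8% lower and 42.7% in either direction. In footprints of the same comparison 0 were called higher and 6 lower, where 6.63% of genes were called higher, 9.84% lower and 16.5% in either direction. In footprints per mRNA, or translation efficiency, 1 was called higher and 0 lower, where 1.12% of genes were called higher, 1.81% lower and 2.93% in either direction. In mice 1 was called higher and 1 lower, where 7.47% of genes were called higher, 5.97% lower and 13.4% in either direction. The values of the 2 groups did not overlap for 6 of the 10 genes in each organoid comparison of 1 assay and for 3 in mice. Over all genes that share was 69.1% in both comparisons with WT organoids, 68.1% in mRNA and 39.3% in footprints of Rptor fl/fl against SCe, and 31.1% in mice. The median log2 difference over the 10 genes was −0.18, 0.12, −0.36, −0.70, −0.05 and 0.13 in the comparisons in the order given, beside medians of −0.03 to 0.02 over all genes. The RNA-seq comparisons share libraries with each other, so their values are set side by side and are not separate evidence.

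**Figure D2:**
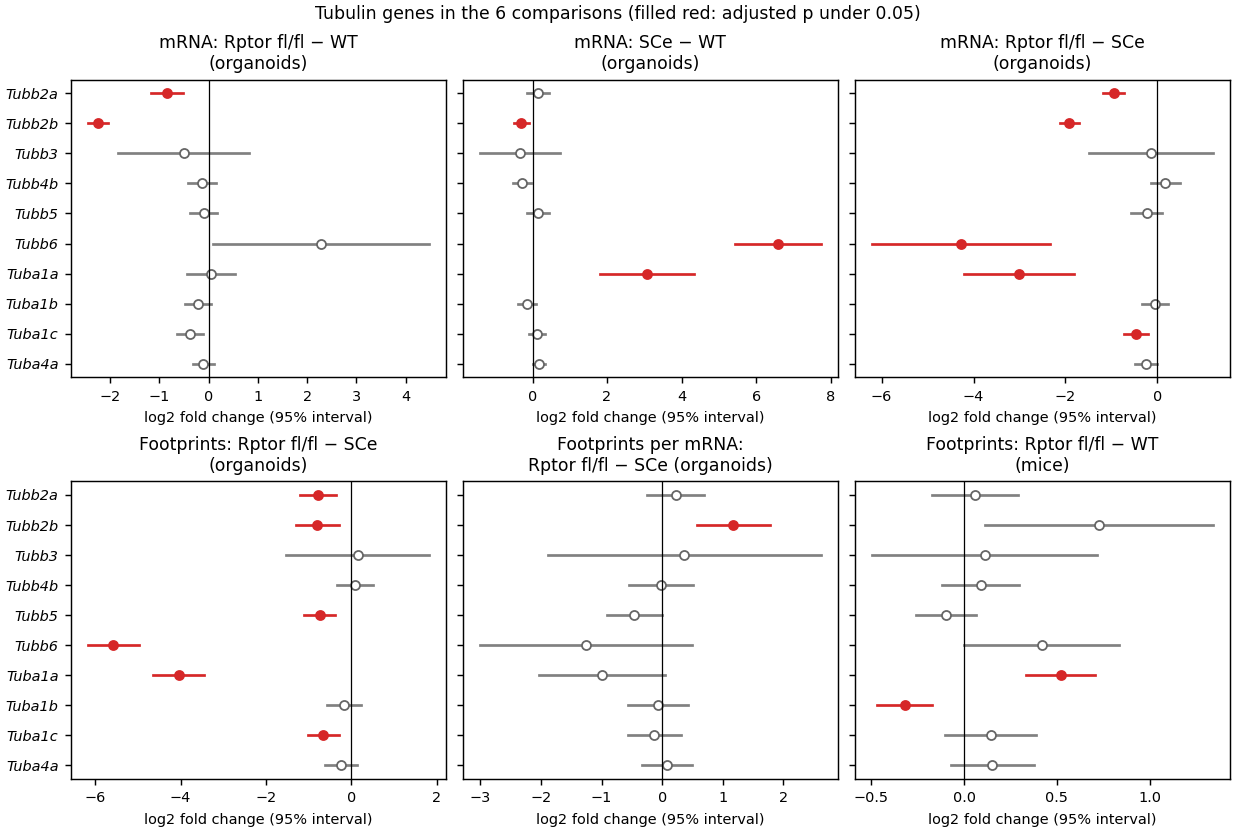
Log2 fold change (x axis) with its 95% interval for each tubulin gene (y axis) in the 6 comparisons, first group minus second. Filled red points have an adjusted p under 0.05, and Tubb6 (−5.57) and Tuba1a (−4.04) lie farthest from 0 in footprints of Rptor fl/fl against SCe organoids. Tubb6 had only 5 to 11 counts per Rptor fl/fl library there.

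Tuba1b, Tuba1c, Tuba4a, Tubb4b and Tubb5 made up most of the tubulin in organoids. By level per kilobase, Tuba1b made up 61.7% ± 0.70 (SD, n = 2) of the listed α-tubulin mRNA in WT organoids, Tuba1c 23.1% ± 0.29, Tuba4a 14.4% ± 0.80 and Tuba1a 0.785% ± 0.18. Among β-tubulins Tubb4b made up 55.2% ± 0.80 and Tubb5 33.3% ± 0.34, followed by Tubb2b with 8.59% ± 0.19, Tubb2a with 2.84% ± 0.29, Tubb3 with 0.0924% ± 0.032 and Tubb6 with 0.0388% ± 0.012. Tuba1b led the α class in the mRNA of all groups. Tubb4b led the β class on average, but in SCe lines its 43.3 to 49.7% overlapped with the 35.6 to 43.6% of Tubb5. Without division by length Tubb4b and Tubb5 held 44.2 and 43.9% in WT, 47.5 and 48.4% in Rptor fl/fl and 36.8 and 49.5% in SCe lines, so that which of them leads in mRNA depends on the scale. In footprints Tuba1b stayed first among α genes, but Tubb5 held 55.5% ± 2.96 (n = 3) of the β level in SCe organoids, above Tubb4b with 32.2% ± 4.02. In the organoid libraries labelled Rptor fl/fl, Tubb5 held 46.0% ± 1.23 and Tubb4b 45.7% ± 0.71, which overlapped, and without division by length the order turned, with 43.9% for Tubb5 and 47.5% for Tubb4b. In mice, whose footprints were counted on another set of sequences, Tubb4b led, with 65.3% ± 0.72 in WT and 66.5% ± 2.96 in the Rptor fl/fl group.

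Tuba1a held 0.785% of the α mRNA level in WT lines, 0.947% ± 0.037 in Rptor fl/fl lines and 6.37% ± 3.32 (n = 3) in SCe lines, with 10.2% in the highest. In footprints it held 10.5% ± 3.07 in SCe organoids and 0.843% ± 0.10 in those labelled Rptor fl/fl. In mice it held 11.02% ± 0.58 in WT and 16.4% ± 0.49 in the Rptor fl/fl group. Tubb6 held 3.90% ± 1.14 of the β mRNA level in SCe lines and 0.216% ± 0.19 in Rptor fl/fl lines. Tubb2b held 7.21% ± 0.26 in SCe and 2.15% ± 0.16 in Rptor fl/fl lines. These shares are descriptions without a test.

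**Figure D3:**
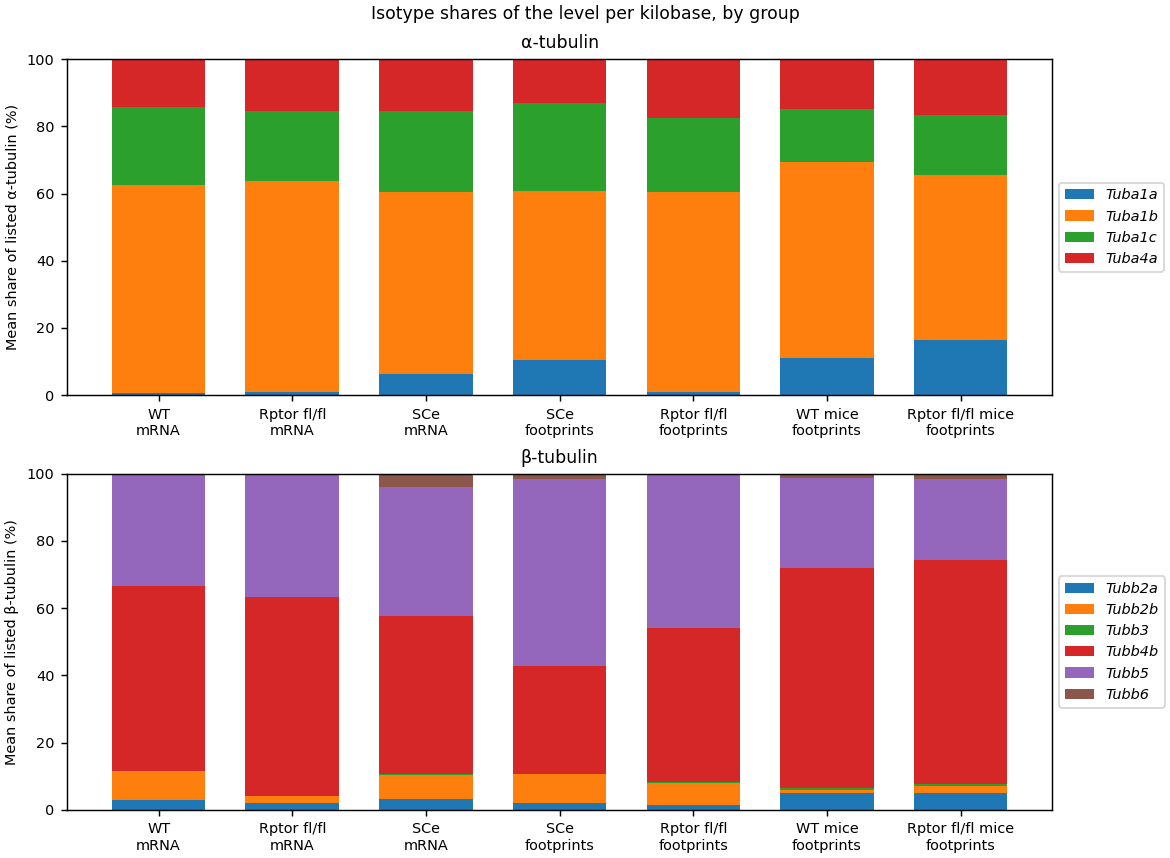
Mean share (percent, y axis) of each listed isotype in the summed level per kilobase of α-tubulin (upper panel) and β-tubulin (lower panel), for the mRNA and footprints of each group (x axis), over 2 or 3 samples a group. Tuba1b leads α-tubulin throughout, and Tubb5 exceeds Tubb4b on average in the footprints of SCe organoids (55.5 to 32.2%) and, by 46.0 to 45.7%, of the Rptor fl/fl organoids, where the order turns without division by length (43.9 to 47.5%).

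The summed α-tubulin mRNA was 1204 ± 50.9 CPM (SD) in WT, 1018 ± 103 in Rptor fl/fl and 1230 ± 26.9 in SCe lines, and the summed β-tubulin mRNA was 1394 ± 68.6, 1181 ± 137 and 1357 ± 35.6. In each class both Rptor fl/fl lines lay below all WT and SCe lines. The summed footprints were 2595 ± 142 CPM for α and 3153 ± 255 for β in SCe organoids, against 1883 ± 107 and 2335 ± 85.0 in those labelled Rptor fl/fl. Again the groups did not overlap. In mice the sums were 931 ± 14.3 for α and 1129 ± 115 for β in WT, and 893 ± 35.8 and 1180 ± 100.0 in the Rptor fl/fl group, where both overlapped. In bulk samples a lower sum can stem from fewer cells of a type or from less RNA per cell, and these cannot be told apart.

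Among the major isotypes, Tuba1b, the broadly expressed α gene, had 778 and 724 CPM in the 2 WT lines, 691 and 602 in the Rptor fl/fl lines and 632, 660 and 720.0 in the SCe lines. The Rptor fl/fl lines lay below WT and overlapped with SCe. Its log2 difference was −0.22 (95% interval −0.48 to 0.05, adjusted p = 0.184) from WT and −0.05 (−0.33 to 0.23, adjusted p = 0.74) from SCe. Its footprints were 1152, 1542 and 1384 CPM in SCe organoids and 1261, 1140 and 1210.0 in those labelled Rptor fl/fl, which overlapped (log2 difference −0.18, −0.58 to 0.23, adjusted p = 0.533).

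Tuba1c, a close copy of Tuba1b that is also broadly expressed, had 332 and 309 CPM in WT, 266 and 228 in Rptor fl/fl and 320.0, 353 and 352 in SCe lines. Both Rptor fl/fl lines lay below every other line. The log2 difference was −0.37 ± 0.10 (SE) from WT, which missed the threshold (adjusted p = 0.0567; 0.00996 by DESeq2 and 0.0126 with the replicate number as a block), and −0.47 ± 0.11 from SCe (adjusted p = 0.0209). Its footprints were lower too, with 499, 419 and 412 CPM in Rptor fl/fl and 709, 700.4 and 684 in SCe (log2 difference −0.66 ± 0.16, adjusted p = 0.0275). The mRNA call against SCe was lost without Rptor fl/fl line 1 or 2 or SCe line 2 or 3, with adjusted p from 0.0523 to 0.132, and with the replicate block (0.11). The footprint call was lost with a correction for effective length (adjusted p = 0.0516), with the replicate block (0.0798) and without any 1 Rptor fl/fl library or SCe library 2 (0.0517 to 0.176).

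Tuba1a, Tuba1b and Tuba1c, whose reads are the hardest to divide, summed to 1081 ± 52.3 CPM of mRNA in WT, 904 ± 91.8 in Rptor fl/fl and 1094 ± 31.4 in SCe lines. Their footprints summed to 2337 ± 163 CPM in SCe organoids, where the lowest library had 2149, and to 1664 ± 105 in those labelled Rptor fl/fl, where the highest had 1780.0. The groups did not overlap in this sum. Tuba4a, an α isotype with a coding sequence of its own, had 122 and 124 CPM in WT, 122 and 107 in Rptor fl/fl and 142, 137 and 129 in SCe lines. Its log2 difference was −0.11 (−0.31 to 0.10) from WT and −0.25 (−0.48 to −0.02, adjusted p = 0.0792) from SCe. DESeq2 called the difference from SCe (adjusted p = 0.0337), as did edgeR with all RNA-seq groups in 1 fit (0.0394). It was also called with technical libraries kept apart (0.0104), a setting that counts libraries of 1 line as separate samples. In footprints the difference from SCe was −0.23 (−0.61 to 0.14, adjusted p = 0.37).

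Tubb4b, a major β gene, had 631 and 602 CPM in WT, 612 and 509.5 in Rptor fl/fl and 455, 519 and 522 in SCe lines. All SCe lines lay below both WT lines, with a log2 difference of −0.28 ± 0.10 that missed the threshold (adjusted p = 0.0659, but 0.00828 by DESeq2). Without SCe line 1 this difference was −0.23 and called (adjusted p = 0.0184). It was also called with technical libraries kept apart (0.0125), a setting that counts libraries of 1 line as separate samples. Between Rptor fl/fl and SCe it differed by 0.17 (−0.14 to 0.48) in mRNA and by 0.09 (−0.33 to 0.52) in footprints, with overlapping groups in both. Its footprints had 1096, 1183 and 837 CPM in SCe and 1070.0, 1100.0 and 1157 in the Rptor fl/fl group.

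Tubb5, the other major β gene, which proliferating cells use broadly, differed little in mRNA. It had 637 and 587 CPM in WT, 616 and 527 in Rptor fl/fl and 753, 610.0 and 655 in SCe lines, with all 3 groups overlapping. Its footprints were 1568, 1799 and 1778 CPM in SCe and 1043, 979 and 1051 in the Rptor fl/fl group, which lay well below. The log2 difference in footprints was −0.75 ± 0.16 (adjusted p = 0.0164), against −0.23 ± 0.13 in mRNA (adjusted p = 0.211). In the fit of both assays together, footprints per mRNA differed by −0.46 ± 0.20, which missed the threshold (adjusted p = 0.243; 0.029 by DESeq2). The footprint call did not hold when counts were corrected for the effective length of the transcripts assigned (log2 difference −0.26, adjusted p = 0.497), nor without any 1 of the Rptor fl/fl libraries (adjusted p 0.0827 to 0.114). With the replicate number as a block its adjusted p was 0.0588.

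**Figure D4:**
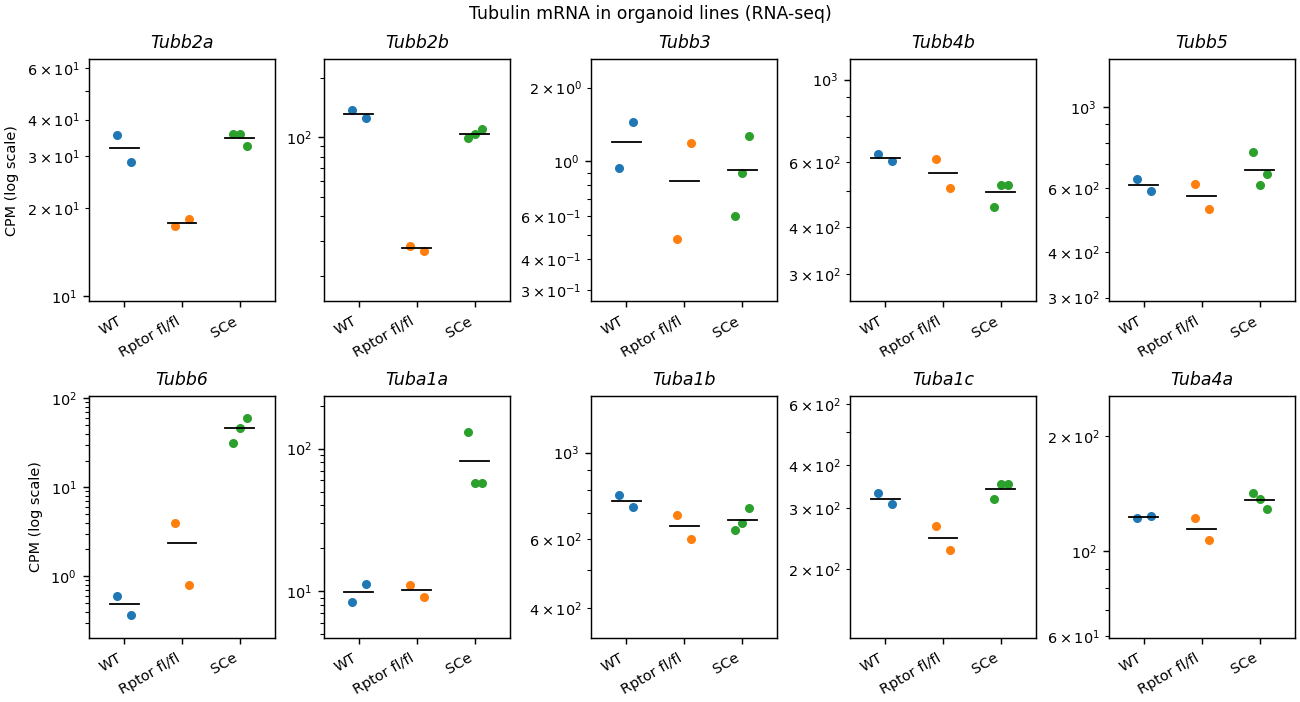
Tubulin mRNA in CPM (y axis, log scale, own range per panel) in each organoid line (points) of WT, Rptor fl/fl and SCe, with the group mean as a bar. Tubb2b sits at 26.9 and 28.5 in Rptor fl/fl against 99.4 to 138 in the other lines, and Tubb6 and Tuba1a are highest in SCe.

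The neuronal-type β genes Tubb2a and Tubb2b were lower in Rptor fl/fl organoids. Tubb2b mRNA had 138 and 125 CPM in the WT lines, 28.5 and 26.9 in the Rptor fl/fl lines and 99.4, 104 and 110.5 in the SCe lines. The Rptor fl/fl lines lay far below all others. The level was 4.73-fold lower than in WT (log2 difference −2.24 ± 0.08, adjusted p = 0.00516) and 3.77-fold lower than in SCe (log2 difference −1.91 ± 0.09, adjusted p = 0.000978). It was called in each of the 10 alternative settings run for the first comparison, with adjusted p up to 0.0176, and in each of the 11 run for the second. Between SCe and WT it was slightly lower in SCe (log2 difference −0.31 ± 0.08, adjusted p = 0.0334), a call that was lost without either WT line or without SCe line 2 or 3 (adjusted p 0.0586 to 0.192) and with the replicate block (0.0967).

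Tubb2a mRNA moved with it by less. It had 35.4 and 28.7 CPM in WT, 17.3 and 18.4 in Rptor fl/fl and 35.7, 35.7 and 32.5 in SCe lines. Both Rptor fl/fl lines were below every other line, while WT and SCe overlapped. The level was 0.556 times that in WT (log2 difference −0.85 ± 0.13, adjusted p = 0.0189) and 0.516 times that in SCe (log2 difference −0.95 ± 0.09, adjusted p = 0.00213). Against WT the call was lost without Rptor fl/fl line 1 (adjusted p = 0.0602). Summed over the pair, whose reads are partly shared, the mRNA was 163 ± 13.9 CPM in WT, 45.5 ± 0.43 in Rptor fl/fl and 139 ± 3.95 in SCe lines.

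In organoid footprints, for which there was no WT group, the pair was lower in the Rptor fl/fl group than in SCe. Tubb2b had 204, 333 and 296 CPM in SCe and 136, 155 and 188 in Rptor fl/fl libraries, without overlap. Its log2 difference was −0.79 ± 0.22 (adjusted p = 0.0425). Tubb2a had 69.3, 64.8 and 55.4 CPM in SCe and 40.2, 38.7 and 30.7 in Rptor fl/fl libraries, again without overlap, and its log2 difference was −0.79 ± 0.19 (adjusted p = 0.0231). Both calls were lost without any 1 Rptor fl/fl library or without SCe library 2, and that of Tubb2b also without SCe library 3, with adjusted p from 0.0534 to 0.168. A correction for effective length also ended both (adjusted p 0.0695 for Tubb2a and 0.103 for Tubb2b). Summed over the pair, the footprints were 341 ± 62.9 CPM in SCe, from 273 to 397.5, and 197 ± 21.4 in Rptor fl/fl libraries, from 176.5 to 219, again without overlap.

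Of the 10 genes only Tubb2b was called in footprints per mRNA. Per kilobase its footprint level was 201 in SCe and 116 in Rptor fl/fl organoids, against mRNA levels of 47.9 and 12.7, so that footprints per mRNA were 4.19 and 9.11. The difference in translation efficiency was 1.18 ± 0.27 on the log2 scale (95% interval 0.57 to 1.78, adjusted p = 0.0467). It was positive in all 17 alternative settings, at 0.99 to 1.32, but past the threshold in 6 of them. It was lost when any 1 Rptor fl/fl library of either assay or SCe line 2 or 3 of the RNA-seq was left out (adjusted p 0.0686 to 0.201), and with the replicate block (0.17). For Tubb2a the same difference was 0.22 (−0.25 to 0.69, adjusted p = 0.609). Only 37.1% of the 28-base coding windows of Tubb2b were its own, so its ratio rests on how shared footprints were divided. Summed over the pair, the mean footprint level was 246 in SCe and 142 in Rptor fl/fl organoids, and the mRNA level 69.4 and 23.8. These sums were not tested. Footprint levels are per kilobase of trimmed sequence and mRNA levels per kilobase of whole transcript. The RNA-seq and Ribo-seq of Rptor fl/fl came from organoids of different genotype by their labels, with and without RPL22.HA, and this difference cannot be told apart from that between assays.

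Tubb6 and Tuba1a were the 2 listed isotypes called higher in SCe cultures than in WT. Tubb6 mRNA had 0.604 and 0.363 CPM in WT, 3.95 and 0.805 in Rptor fl/fl and 31.2, 46.8 and 59.6 in SCe lines. Each SCe line lay above every other line. The log2 difference from WT was 6.58 ± 0.45 (adjusted p = 0.00147), and it was called in all 11 alternative settings. In Rptor fl/fl it was 4.28 lower than in SCe on the log2 scale (−4.28 ± 0.76, adjusted p = 0.0105). Against WT it differed by 2.28 ± 0.84, which missed the threshold (adjusted p = 0.115) but was called by DESeq2 (0.0233) and with the replicate block (0.0186). The difference from WT was also called with technical libraries kept apart (0.0147), a setting that counts libraries of 1 line as separate samples. Without Rptor fl/fl line 1 that difference was 0.73, and without line 2 it was 3.03 and called (adjusted p = 0.0239).

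Tuba1a mRNA had 8.46 and 11.2 CPM in WT, 11.2 and 9.13 in Rptor fl/fl and 131, 57.2 and 57.3 in SCe lines. SCe line 1 was the highest, and all 3 were above every WT and Rptor fl/fl line, which overlapped with each other. The log2 difference of SCe from WT was 3.07 ± 0.49 (adjusted p = 0.00813), and that of Rptor fl/fl from SCe was −3.01 ± 0.47 (adjusted p = 0.0073). Without SCe line 1 they were 2.56 and −2.50 and still called. They missed the threshold when a WT or Rptor fl/fl line was left out, with adjusted p from 0.0606 to 0.0723.

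Footprints of both genes followed the same order. Tubb6 had 48.7, 58.0 and 55.8 CPM in SCe and 0.830, 1.11 and 1.34 in the Rptor fl/fl group (log2 difference −5.57 ± 0.26, adjusted p = 7.9e-05). In the Rptor fl/fl group these were only 5, 7 and 11 counts, against 90, 68 and 242 in SCe. Tubb6 thus passed the count filter through the SCe libraries, and the size of its difference rests on few reads. Tuba1a had 288, 199 and 354 CPM in SCe and 20.2, 16.3 and 14.7 in Rptor fl/fl libraries (log2 difference −4.04 ± 0.26, adjusted p = 0.000192). In both genes the groups lay far apart, and both were called in all 11 alternative settings. Their footprints per mRNA differed by −1.26 (−3.005 to 0.49, adjusted p = 0.41) and −0.99 (−2.04 to 0.05, adjusted p = 0.27), wide intervals that hold 0. Tuba1a was called there without SCe line 1 of the RNA-seq (−1.49, adjusted p = 0.0254).

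Other genes known from non-epithelial cells were higher in SCe lines as well. The summed level of 7 stromal markers was 69.8 to 115.3 CPM in SCe lines, 2.34 to 3.43 in WT and 1.45 to 3.11 in Rptor fl/fl lines. Most of the SCe sum was 1 gene, Vim, the intermediate filament vimentin, with 89.0 CPM on average. Pdgfra had 3.33 and Col1a1 1.31. Only 3 of the 7 were tested against WT, and all 3 were called higher, against 22.4% of all genes, led by Vim (log2 difference 5.23 ± 0.37, adjusted p = 0.00157). Col3a1 and Lum, defining genes of fibroblasts, were at 0 in all SCe lines. The 11 neuronal markers summed to 41.4 to 54.4 CPM in SCe against 10.6 to 12.7 in WT, of which the receptor gene Ret made up 35.9 on average, while Stmn2 was at 0. The 6 epithelial markers summed to 4252 to 4654 CPM in SCe and 7739 to 8124 in WT. Most of that difference lay in 3 keratin genes. On average Krt8 had 1061 CPM in SCe and 2805 in WT, Krt19 493 and 1835, and Krt18 450 and 742. These were the only 3 of the 6 that edgeR called lower, against 19.9% of all genes, while DESeq2 called 5. In footprints the stromal list summed to 143 to 808 CPM in SCe and 5.71 to 9.79 in Rptor fl/fl libraries, of which Vim made up 393 and 5.74 on average. The part of these in the levels of Tubb6 and Tuba1a was not tested.

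Tubb3, the class III β-tubulin used as a marker of neurons, was close to the limit of detection. It had 0.944 and 1.45 CPM of mRNA in WT, 0.484 and 1.19 in Rptor fl/fl and 0.602, 0.895 and 1.27 in SCe lines, with all groups overlapping. Its footprints were 1.43 to 6.30 CPM in Rptor fl/fl and 1.84 to 7.68 in SCe organoids. For Rptor fl/fl against WT the 95% interval of its log2 difference ran from −1.83 to 0.81, which holds both 0 and the difference measured for Tubb2a.

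**Figure D5:**
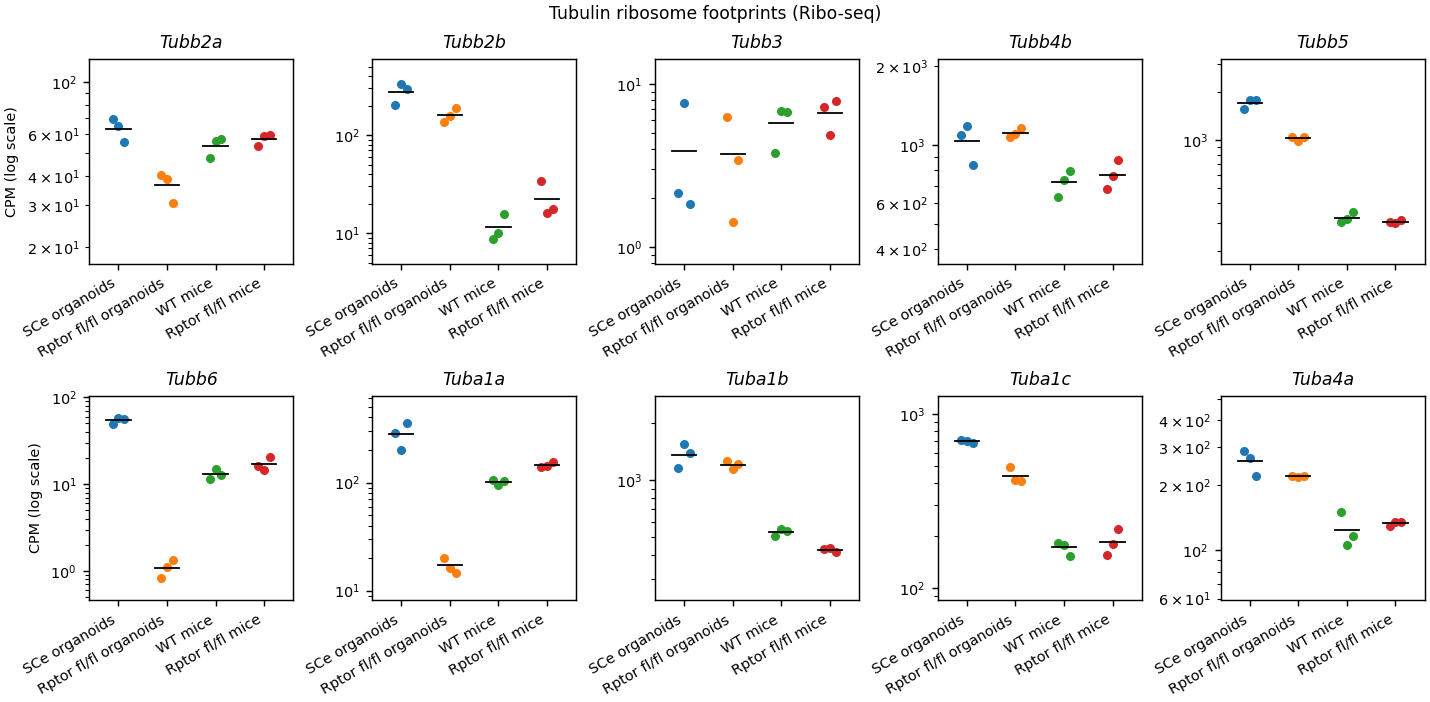
Tubulin footprints in CPM (y axis, log scale, own range per panel) in each Ribo-seq library (points) of SCe and Rptor fl/fl organoids and of WT and Rptor fl/fl mice, with the group mean as a bar. Organoids and mice were scaled separately, so only neighbouring pairs of groups can be compared, such as Tuba1a at 95.9 to 106 in WT and 140.0 to 155 in Rptor fl/fl mice.

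In mice 2 α genes differed, in opposite directions. Tuba1a footprints were 106, 95.9 and 104.5 CPM in WT and 140.0, 142 and 155 in mice labelled Rptor fl/fl, 1.43-fold higher (log2 difference 0.52 ± 0.09, adjusted p = 0.000965). Tuba1b footprints were 504, 553 and 541 CPM in WT and 430.2, 438 and 418.5 in the Rptor fl/fl group, 1.25-fold lower (log2 difference −0.32 ± 0.07, adjusted p = 0.00634). Neither gene overlapped between the groups, which held for 31.1% of all genes tested, and both were called in all 10 alternative settings. Most of their coding sequence is shared, and Tuba1a and Tuba1b together had 610.0 to 649 CPM in WT and 570.2 to 580.0 in the Rptor fl/fl group, also without overlap. Both share most with Tuba1c, and with it added the sums were 792.4 to 827.4 CPM in WT and 726.3 to 791.2 in the Rptor fl/fl group, which barely separated.

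Of the other 8 genes in mice, Tubb2b had 8.80, 10.0 and 15.8 CPM in WT and 34.1, 16.1 and 17.5 in the Rptor fl/fl group. All 3 Rptor fl/fl mice were above WT, mouse 1 by most, and the log2 difference of 0.73 ± 0.29 missed the threshold (adjusted p = 0.113; 0.0204 with no count filter), with a value of 0.36 without mouse 1. Summed with Tubb2a it had 56.6 to 73.2 CPM in WT and 75.2 to 87.6 in the Rptor fl/fl group, which did not overlap. That mouse was also the one with the high Lgr5 value. Tubb6 differed by 0.42 (95% interval 0.00 to 0.83, adjusted p = 0.186), and Tubb5, Tubb4b, Tubb2a, Tubb3, Tuba1c and Tuba4a by −0.10 to 0.15 with overlapping groups.

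The mouse libraries held much RNA of cells other than Lgr5-positive stem cells. The stromal markers summed to 1002 to 1030 CPM in WT and 1252 to 1494 in Rptor fl/fl mice, where 6 of 7 were higher, against 7.47% of all genes, such as the collagen gene Col3a1 (log2 difference 0.49 ± 0.08, adjusted p = 0.00106). The endothelial markers summed to 46.8 to 62.9 and 69.1 to 72.5 CPM, the neuronal markers to 30.2 to 40.3 and 39.1 to 47.9, and the smooth muscle markers to 1217 to 1358 and 1159 to 1316. The 13 proliferation genes summed to 1029 to 1096 CPM in WT and 794 to 919.5 in Rptor fl/fl mice, where 7 were lower, against 5.97% of all genes, such as Top2a (log2 difference −0.48 ± 0.09, adjusted p = 0.00246). The 5 stem cell markers summed to 549.6 to 576 CPM in WT and 347 to 529 in Rptor fl/fl mice, where Olfm4 (−0.63, adjusted p = 6.29e-05) and Ascl2 (−1.69, adjusted p = 0.00765) were lower. The 6 epithelial markers summed to 15710 to 16360 and 15030 to 17550 CPM, with Cdh1 (0.36, adjusted p = 0.00207) and Epcam (0.23, adjusted p = 0.0286) higher, and the 7 immune markers to 3853 to 3954 and 3597 to 3973. None of these lists had a marker at 0 in either group. Their part in the opposite changes of Tuba1a and Tuba1b was not tested.

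Of the other 10 tubulin genes, 6 or 7 were tested in RNA-seq. Tubal3, a divergent α gene, was higher in Rptor fl/fl than in WT, with 31.7 and 34.5 against 24.8 and 25.9 CPM (log2 difference 0.39 ± 0.09, adjusted p = 0.04). Tubb4a, a brain β gene, was higher in SCe at 2.07 to 4.16 CPM than in WT at 0.585 and 0.755 (log2 difference 2.34 ± 0.41, adjusted p = 0.0108) and than in Rptor fl/fl at 0.445 and 0.472 (adjusted p = 0.00593). Tuba8 was also higher in SCe than in WT, at 0.298 to 0.970 against 0.0567 and 0.0807 CPM (adjusted p = 0.0232). Tube1, ε-tubulin, was higher by 0.52 ± 0.15 (adjusted p = 0.0449), and Tubd1, δ-tubulin, both of them linked to centrioles, was lower in SCe than in WT by −1.24 ± 0.19 (adjusted p = 0.00774) and higher in Rptor fl/fl than in SCe (1.16 ± 0.21, adjusted p = 0.0106). Tubg1, the γ-tubulin that nucleates microtubules, had 22.2 to 26.8 CPM in Rptor fl/fl and 32.6 to 33.0 in WT (log2 difference −0.42 ± 0.12, adjusted p = 0.0602), and Tubg2 differed by −0.28 (−1.43 to 0.87). In footprints, edgeR called 0 of the 4 tested in organoids, with 0 at an unadjusted p under 0.05 and 0 by DESeq2, and 0 of the 3 tested in mice, with 1 and 0. The genes Tuba3a, Tuba3b and Tubb1 were at 0.0807 CPM or less in all lines of the RNA-seq and were not tested.

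Of 7 tubulin cofactor and cofactor-like genes, 1 was higher and 1 lower in Rptor fl/fl than in WT by RNA-seq, against 11.6 and 11% of all genes. Tbcel, a cofactor-like gene, was higher (0.66 ± 0.09, adjusted p = 0.0175) and Tbcb lower (−0.30 ± 0.07, adjusted p = 0.0489). Against SCe 2 were lower, with Tbcd at −0.65 ± 0.08 (adjusted p = 0.00336). Of 13 tested subunits of the CCT chaperonin and prefoldin, 2 were lower in Rptor fl/fl than in WT and 5 lower than in SCe, including Cct2 (−0.55 ± 0.11, adjusted p = 0.0162), with medians of −0.14 and −0.24. Of all genes tested, 11% were lower than in WT and 21.8% lower than in SCe. In organoid footprints 0 of the 13 were called by edgeR, with 0 at an unadjusted p under 0.05 and 0 by DESeq2. Of 4 genes of the feedback on tubulin mRNA, 2 were higher in SCe than in WT, against 22.4% of all genes. These were Ttc5, by 0.42 ± 0.07 (adjusted p = 0.0106), and Scaper, by 0.37 ± 0.09 (adjusted p = 0.0253). Between Rptor fl/fl and WT edgeR called 0 of these 4, with 1 at an unadjusted p under 0.05 and 0 by DESeq2, and in mice Cnot1, a subunit of the deadenylase that shortens mRNA tails, was higher by 0.26 ± 0.08 (adjusted p = 0.0451).

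Of 19 tested enzymes that modify tubulin, 11 were higher and 1 lower in SCe than in WT, against 42.3% of all genes called either way, with a median of 0.59. Examples were the deacetylase Hdac6 (0.71 ± 0.07, adjusted p = 0.00281), the deglutamylase Agtpbp1 (1.34 ± 0.14, adjusted p = 0.00315) and the glutamylase subunit Ttll1 (1.64 ± 0.20, adjusted p = 0.0044). Of 17 tested in Rptor fl/fl against WT, 4 were higher and 1 lower, against 22.6% of all genes. Vash2, which helps remove the C-terminal tyrosine of α-tubulin, was the lower one (−0.90 ± 0.13, adjusted p = 0.0175), and the deacetylase Sirt2 was higher (0.67 ± 0.07, adjusted p = 0.0109). In organoid footprints 5 of 13 were lower in the Rptor fl/fl group than in SCe, against 9.84% of all genes, with Atat1, the α-tubulin acetyltransferase, at −1.74 ± 0.41 (adjusted p = 0.0216). Atat1 and Sirt2 were the 2 of 13 that fell in footprints per mRNA, against 1.81% of all genes, by 2.71 (adjusted p = 0.00864) and 0.97 (adjusted p = 0.0479) on the log2 scale.

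Of 26 microtubule-binding genes tested in SCe against WT, 8 were higher and 6 lower, against 22.4 and 19.9% of all genes, with the neuronal Map2 at 4.31 ± 0.44 (adjusted p = 0.00297) and Camsap3, which anchors minus ends in epithelium, at −0.71 ± 0.07 (adjusted p = 0.00243). Of 27 tested in Rptor fl/fl against WT, 3 were higher and 2 lower, against 11.6 and 11%, Map2 again among the higher (1.63 ± 0.26, adjusted p = 0.0203). In mice 2 of 25 were higher, Map4 among them (0.38 ± 0.08, adjusted p = 0.00563), and 2 lower, Stmn1 (−0.58 ± 0.14, adjusted p = 0.0121) and Clip1 (−0.47 ± 0.13, adjusted p = 0.0301), against 7.47 and 5.97%. Of 18 motor genes tested, 2 were higher and 3 lower in Rptor fl/fl than in WT, against 11.6 and 11%, with the dynein heavy chain Dync1h1 at 0.72 ± 0.09 (adjusted p = 0.0148). Of 19 tested, 6 were higher and 3 lower in SCe than in WT, against 22.4 and 19.9%, with the kinesin-2 motor Kif3a at 1.54 ± 0.09 (adjusted p = 0.00119). Of 17 spindle genes 1 was higher and 1 lower in Rptor fl/fl than in WT, against 11.6 and 11%. In organoid footprints 3 of 17 were higher in the Rptor fl/fl group than in SCe, against 6.63% of all genes, including Kif11 (0.74 ± 0.20, adjusted p = 0.0387). In mice 3 of 17 were lower, against 5.97%, including Kifc1 (−0.94 ± 0.24, adjusted p = 0.0157). Of the 9 genes of the γ-tubulin ring complex, 3 were higher and 1 lower in SCe than in WT, against 22.4 and 19.9%, and 4 were lower in Rptor fl/fl than in SCe, against 21.8%.

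Over the 7 organoid lines of the RNA-seq, the genes whose log2 CPM followed that of Tuba1b most closely, out of 12621 with a mean of at least 1 CPM, were Plk1 (Pearson r = 0.976), Smc4 (0.972) and Vrk1 (0.970). Those most like Tubb4b were Kif22 (0.997), Plcd1 (0.983) and Orc6 (0.983). These values rank genes over 7 points that share library, culture condition and depth, and carry no test.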

How the data were processed

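The authors trimmed the Ribo-seq reads with cutadapt 1.18 and quantified all 23 libraries with Salmon 1.1.0 on GENCODE vM21 sequences (mm10), per the labels and the methods of the study. RNA-seq was counted on protein-coding transcripts and footprints, after removal of rRNA fragments, on mRNA sequences that the methods describe as trimmed of untranslated ends. The mouse libraries held 65862 such entries and the organoid Ribo-seq 59120. Tuba1c in WT mice had 171 CPM at a level of 89.7 per kilobase, which implies a sequence longer than its 1350 coding bases. Levels per kilobase in mice and in organoid footprints therefore rest on unlike sequences. The deposited values used are estimated counts, which need not be whole. The deposited TPM and a table with fold changes and p-values of the authors' own comparison were not used. Salmon divides a read that fits several isotypes between them by a statistical model.

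Estimated counts were summed per gene, entries of 5′ regions left out, and rounded. The 2 technical libraries of each WT and Rptor fl/fl line of the RNA-seq were summed. In R 4.3.3, edgeR 4.0.16 was used with filterByExpr, TMM scaling and the quasi-likelihood test on the libraries of the groups compared, with Benjamini-Hochberg adjustment over all genes tested at 0.05. Translation efficiency was tested as an interaction term between assay and group (Rptor fl/fl or SCe). An SE is that of the fitted log2 difference, and p-values measure the spread between these lines, libraries or mice. Levels per kilobase divide counts by the deposited transcript length. The code was tested on simulated data. Alternatives were DESeq2 1.42.0, no count filter, an offset for effective length, a replicate block, leaving out each sample, technical libraries kept apart, all RNA-seq groups in 1 fit and 5′ entries added.

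The tubulin list, the other gene lists and the tests were chosen with earlier results of these data known. Named were all listed tubulins, every tested gene among the other tubulins and up to 3 called genes with the smallest adjusted p per other list and comparison. Intervals cover the spread between samples only. A few items are not reported here.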

Additional observations from a re-analysis of the deposited data

How the results depend on the processing

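The numbers in the labels did not pair the Ribo-seq libraries, which correlated at −0.0458 to 0.0286 in organoids and −0.00476 to 0.0351 in mice when numbered alike. For the RNA-seq, with 2 shared numbers per comparison (0.199 to 0.383), pairing was not decided. With the replicate number as a block, 4 listed genes were called in Rptor fl/fl against WT, 3154 genes in SCe against WT, 3413 genes in mRNA of Rptor fl/fl against SCe, and 4 genes and 0 listed genes in translation efficiency. The block made calls for Tubb6 (adjusted p = 0.0186) and Tuba1c (0.0126) in Rptor fl/fl against WT. It ended those for Tubb2b in SCe against WT (0.0967), for Tuba1c in mRNA (0.11) and footprints (0.0798) and Tubb5 in footprints (0.0588) of Rptor fl/fl against SCe, and for Tubb2b in translation efficiency (0.17). It turned the log2 difference of Tubb3 (0.0798) and Tuba1b (0.000758) in mRNA of Rptor fl/fl against SCe.

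DESeq2 called 4 listed genes in Rptor fl/fl against WT, and 1206 genes and 2 listed genes in translation efficiency. With technical libraries kept apart, 7208 genes and 5 listed genes were called in Rptor fl/fl against WT, 5 listed genes in SCe against WT, and 1312 genes in translation efficiency. This setting counts libraries of 1 line as separate samples, so its p-values no longer measure the spread between lines. All RNA-seq groups in 1 fit gave 1544 genes in Rptor fl/fl against WT. The length offset gave 659 genes and 2 listed genes in organoid footprints, 117 genes and 0 listed genes in translation efficiency and 678 genes in mice, and turned Tuba4a footprints (0.28) and Tubb5 translation efficiency (0.0287). No count filter and 5′ entries added each left 0 listed genes in translation efficiency, and 5′ entries turned Tubb4b there (0.0115). Without division by length, Tubb4b held 44.2, 47.5 and 36.8% of β mRNA in WT, Rptor fl/fl and SCe lines, and 47.5 and 63.9% of β footprints in Rptor fl/fl organoids and WT mice, below Tubb5 in Rptor fl/fl and SCe mRNA (48.4 and 49.5%) and above it in Rptor fl/fl organoid footprints (43.9%), while Tuba1b held 63.5% of α mRNA and 63.9% of α footprints in Rptor fl/fl organoids. The cause of these changes was not tested.

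Leaving out 1 sample gave 939 to 2126 genes and 2 to 3 listed genes in Rptor fl/fl against WT, 2027 to 9530 and 1 to 4 in SCe against WT, 2509 to 9101 and 3 to 5 in mRNA of Rptor fl/fl against SCe, 669 to 2682 and 2 to 6 in organoid footprints, 25 to 951 and 0 to 2 in translation efficiency, and 897 to 1954 and 2 in mice. It moved the sign of some log2 differences, none of them called. Most lay near 0, but in translation efficiency the main value was −1.26 for Tubb6 and 0.36 for Tubb3. Between Rptor fl/fl and WT those that changed sign were Tuba1a (−0.15 to 0.26), Tubb4b (−0.27 to 0.00609), Tubb5 (−0.22 to 0.0236) and Tuba4a (−0.20 to 0.00316), and in SCe against WT Tubb2a (−0.024 to 0.27). In Rptor fl/fl against SCe they were Tubb3 (−0.93 to 0.36) and Tuba1b (−0.15 to 0.0542) in mRNA, Tubb3 (−0.48 to 0.90) and Tubb4b (−0.0309 to 0.20) in footprints, and Tubb3 (−0.27 to 1.14), Tubb4b (−0.15 to 0.11), Tubb6 (−1.99 to 0.28), Tuba1b (−0.18 to 0.033) and Tuba4a (−0.0289 to 0.16) in translation efficiency. In mice they were Tubb3 (−0.0773 to 0.27), Tubb4b (−0.00966 to 0.17) and Tuba1c (−0.00152 to 0.26). The shares of Tubb4b and Tuba1b were 54.6 to 55.7 and 61.2 to 62.2% in WT, 58.6 to 59.6 and 62.4 to 62.9% in Rptor fl/fl lines. Of 60 results for listed genes, 19 changed sign somewhere, 0 of them called. Tubb3 rested on 25 to 72 reads per WT or Rptor fl/fl line of the RNA-seq.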

Other observations

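In the organoid Ribo-seq, the entries for 5′ regions, which the comparisons left out, held footprints of Tubb5, Tubb2b, Tuba1b and Tubb4b in every library. Tubb5 had 47.1, 84.8 and 95.5 CPM there in the Rptor fl/fl group and 233, 150.5 and 64.9 in SCe, which overlapped. Tubb2b had 5.81, 9.20 and 14.6 CPM in the Rptor fl/fl group and 26.5, 33.3 and 19.1 in SCe, without overlap and in the direction of its coding footprints. Tuba1b had 14.3, 13.6 and 11.6 CPM in the Rptor fl/fl group and 28.7, 5.97 and 4.38 in SCe. Tubb4b and the other listed genes with such entries had 7.03 CPM or less in every library. No test was made on these values.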
